A study of Mus musculus with 18 samples.

Results

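Cytochrome P450 genes were taken as the protein-coding genes of the RefSeq annotation of the mouse assembly GRCm38 whose symbol is Cyp followed by a digit. There were 99 such genes among 21887 protein-coding genes, on 15 chromosomes. A binding peak of the clock transcription factor BMAL1 was counted at a Cyp gene when its centre lay inside the gene or within 10 kb of either end, and a peak near several neighbouring Cyp genes was counted once. The peaks came from ChIP-seq, in which DNA bound to an immunoprecipitated protein is sequenced, here with a chicken antibody to the N-terminal domain of BMAL1. The animals were wild-type C57BL/6 mice aged 3 to 6 months, on a 12 h light and 12 h dark cycle with free access to food and water. Liver, kidney and heart of the same 3 animals were taken at ZT6, that is 6 h after lights on. Each tissue gave 3 ChIP and 3 input libraries, 18 in all, which the authors pooled into 1 peak list for each tissue. No group differed in genotype or treatment, so the comparison was between tissues, and whole tissues hold several cell types whose binding was not separated.

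The lists held 4813 (liver), 4034 (kidney) and 2519 (heart) peaks, each with a whole-number score from the authors that was used only to rank peaks within a list. A percentile below is the percentage of a list's peaks with a lower score, with tied peaks at the middle of their group. The lists carried no value per animal, and read depth was unknown. No difference between tissues could therefore be tested against the spread between mice, and intervals cover counting error only. For the heart input, 1 label (the source) reads kidney while the titles and the tissue label read heart, and the effect of this on the heart peaks was not tested. Peak lists carry no RNA level. The tissue labels could be set only against peaks at 4 marker genes per tissue, and these were at 0 of 4 liver markers in the liver list, 1 of 4 kidney markers (Lrp2) in the kidney list and 1 of 4 heart markers (Myl2) in the heart list. The liver list also held a peak at the kidney marker Slc12a3 and at the heart marker Nppa, so these peaks did not serve as a check.

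Cytochromes P450 are heme enzymes that add oxygen to sterols, steroid hormones, vitamins, fatty acids and foreign compounds. Liver holds most of the drug-metabolising and bile acid enzymes, kidney makes and degrades active vitamin D, and mouse Cyp genes lie largely in tandem clusters of close relatives. BMAL1 pairs with CLOCK and binds E-boxes, with CACGTG as the canonical letters. Among its direct targets are the transcription factors Dbp, Tef and Hlf, which are known to regulate drug-metabolising P450 genes in liver.

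The sequences under the peaks could be read only where a peak overlapped a RefSeq promoter window of GRCm38.p6, which runs from 250 bases before to 50 bases after a listed transcription start. The stretches shown are the overlap of the liver peak with that window, on the gene's strand, up to 30 bases after the start. Capitals mark CACGTG and the E-box-like CACGTT, which reads AACGTG on the other strand. The stretches belong to the 3 liver peaks at a Cyp gene start and to 2 high-ranking liver peaks at the start of a protein-coding neighbour. The liver peak inside Cyp17a1 (rank 327) also overlaps a promoter window, that of Gm41857, and is not shown. The stretches cover chr8:45333168-45333409 (minus strand) for Cyp4v3, chr12:108334131-108334345 (plus) for Cyp46a1 and chr19:37697782-37697837 (plus) for Cyp26a1. They cover chr7:27166773-27166935 (minus) for Egln2, the neighbour of Cyp2t4, and chr10:127063323-127063564 (plus) for Cdk4, the neighbour of Cyp27b1.
Cyp4v3: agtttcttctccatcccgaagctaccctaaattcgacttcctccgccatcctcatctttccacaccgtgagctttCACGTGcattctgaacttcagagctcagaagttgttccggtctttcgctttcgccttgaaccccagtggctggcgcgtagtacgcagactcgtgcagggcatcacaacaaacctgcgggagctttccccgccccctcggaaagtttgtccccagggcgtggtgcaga
Cyp46a1: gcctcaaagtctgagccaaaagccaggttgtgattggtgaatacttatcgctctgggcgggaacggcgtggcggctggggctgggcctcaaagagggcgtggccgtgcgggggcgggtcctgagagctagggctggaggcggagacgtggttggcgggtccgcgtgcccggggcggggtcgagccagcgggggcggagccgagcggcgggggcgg
Cyp26a1: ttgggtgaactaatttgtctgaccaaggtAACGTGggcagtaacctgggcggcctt
Egln2: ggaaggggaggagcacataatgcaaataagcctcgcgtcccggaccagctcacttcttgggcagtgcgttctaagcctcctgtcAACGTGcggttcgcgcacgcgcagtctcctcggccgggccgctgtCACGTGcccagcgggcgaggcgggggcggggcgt
Cdk4: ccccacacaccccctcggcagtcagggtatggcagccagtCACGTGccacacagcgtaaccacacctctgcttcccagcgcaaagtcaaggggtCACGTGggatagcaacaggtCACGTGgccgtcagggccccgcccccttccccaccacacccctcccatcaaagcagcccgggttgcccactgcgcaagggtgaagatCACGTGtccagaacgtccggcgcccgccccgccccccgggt
Cyp4v3 held 1 canonical E-box, with its first base at position -171 relative to the start. Cyp46a1 held neither form. Cyp26a1 held 1 AACGTG, with its first base 4 bases after the start. The Egln2 stretch held 1 E-box across the start, with its first base at -4, and 1 AACGTG. The Cdk4 stretch held 4 canonical E-boxes, and one of them had its middle 4 bases from the centre of the liver peak.

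BMAL1 peaks were found at 20 of the 99 Cyp genes, 20.2% (exact Clopper-Pearson 95% interval 12.8 to 29.5%), against 30.7% of all protein-coding genes. In liver, 16 Cyp genes had a peak, or 16.2% (9.53 to 24.9%), against 18.1% of all protein-coding genes. In kidney, 8 had a peak, or 8.08% (3.55 to 15.3%), against 18.0%. In heart, 4 had a peak, or 4.04% (1.11 to 10.0%), against 11.5%. With the 10 kb window the liver share was thus near that of all genes, and the kidney and heart shares lay below it. For peaks inside the gene only, the liver share was 6.06% against 10.2%. Neighbouring Cyp genes can share a peak or lack one together, so the genes are not independent, and these intervals, computed as if they were, are too narrow. Cyp genes had a median length of 22.5 kb, against 17.2 kb for all protein-coding genes. A median does not reflect the longest genes, so it does not show equal sequence per gene. With flanks, and overlaps counted once, the 99 Cyp genes covered 4.47 Mb and all protein-coding genes 1288 Mb. Counted per length of gene and flank, Cyp genes carried 4.25 liver, 2.01 kidney and 0.896 heart peaks per Mb, against 3.01, 2.72 and 1.67 for all protein-coding genes.

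**Figure D1:**
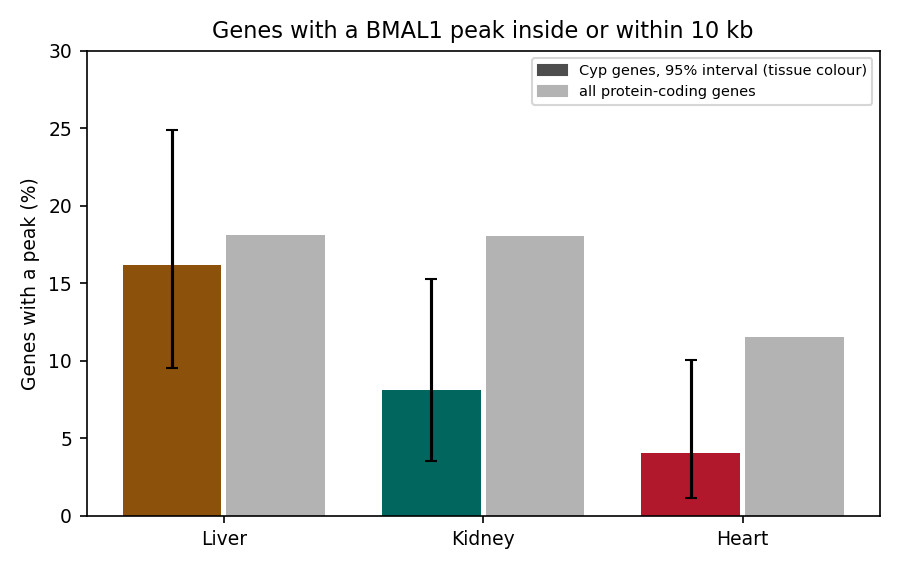
Share of genes with a BMAL1 peak inside the gene or within 10 kb (%), by tissue, for the 99 Cyp genes (coloured bars, error bars are exact 95% intervals) and for all 21887 protein-coding genes (grey bars). Cyp genes reach 16.2% in liver, 8.08% in kidney and 4.04% in heart, against 18.1, 18.0 and 11.5% of all genes.

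Counting each peak once, 19 liver, 9 kidney and 4 heart peaks lay at Cyp genes, 32 in all. They merged into 25 regions when peaks overlapping by at least 1 bp were joined. Of these, 1 region (4%) was common to the 3 tissues, 5 (20%) were found in 2 of them and 19 (76.0%) in 1. Among the 7409 regions near any protein-coding gene the shares were 6.44, 15.6 and 77.9%. Of the liver peaks, 14 of 19 were in liver only (73.7%, 48.8 to 90.9%), against 63.1% of all liver peaks near a protein-coding gene. In kidney, 3 of 9 were in kidney only (33.3%, 7.49 to 70.1%), against 56.6%, and in heart 2 of 4 (50%, 6.76 to 93.2%), against 62.8%. Each interval holds the share of its own list. By position, the 19 single-tissue regions were not near misses of another list's peak. Peak lists cannot show signal at the same site that was too weak to be listed, so this was not tested. The closest peak of another tissue was 5.69 kb away, beside Cyp2w1, and the median distance to the other lists was 99.5 kb.

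By gene, 11 Cyp genes had liver peaks only. They were Cyp8b1, Cyp26a1, Cyp26c1, Cyp17a1, Cyp2u1, Cyp4v3, Cyp1a1, Cyp1a2, Cyp2c23, Cyp2d22 and Cyp2w1. Cyp20a1 and Cyp24a1 had kidney peaks only, and Cyp2ab1 a heart peak only. Liver and kidney peaks occurred at Cyp27b1, Cyp2f2 and Cyp3a13, and kidney and heart peaks at Cyp26b1. Cyp2t4 and Cyp46a1 had peaks in all 3 tissues, but only at Cyp2t4 was it the same site. Liver-only genes were thus 55.0% of the Cyp genes with any peak, against 22.8% of all protein-coding genes with any peak. This share was not tested, and 4 of the 11 genes share their peaks in pairs, Cyp1a1 with Cyp1a2 and Cyp26a1 with Cyp26c1.

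Scores were compared by their percentile within each list. The median percentile was 71.2 (range 19.2 to 95.5) for liver peaks, 54.5 (19.6 to 92.6) for kidney peaks and 73.0 (6.05 to 91.1) for heart peaks, against 53.6, 52.4 and 54.2 for peaks near any protein-coding gene. In the top 10% of their list were 3 of 19 liver peaks, at Cyp2t4, Cyp17a1 and Cyp27b1, 2 of 9 kidney peaks, at Cyp27b1 and Cyp2t4, and 1 of 4 heart peaks, at Cyp2t4.

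**Figure D2:**
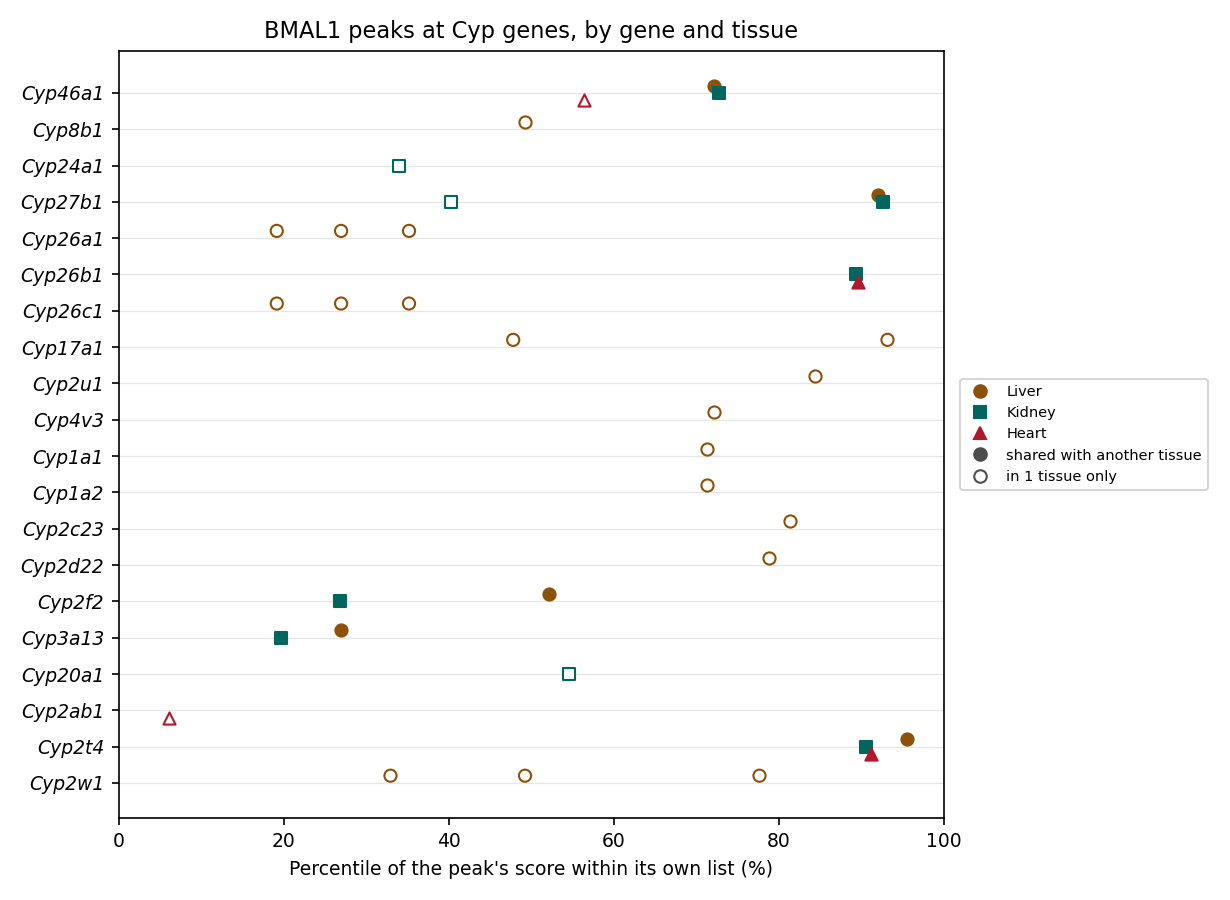
Percentile of each peak's score within its own list (%) for the 20 Cyp genes with a peak, for liver (circles), kidney (squares) and heart (triangles), ordered by role. Filled symbols overlap a peak of another tissue and open symbols do not; Cyp2t4, Cyp27b1 and Cyp26b1 hold shared peaks near or above the 90th percentile, and the 3 liver peaks at Cyp26a1 and Cyp26c1 lie between 19.2 and 35.2.

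Among 7 genes of bile acid and sterol metabolism, 2 had a peak (28.6%, against 30.7% of all protein-coding genes). Cyp46a1, which hydroxylates cholesterol and is best known from neurons, had the peaks nearest to its start of any in this group. The liver peak (chr12:108334131-108334372) scored 60, at rank 1325 of 4813, and its centre was at -65 bp relative to the start, where negative is upstream. The kidney peak (chr12:108334171-108334358) overlapped it, scored 43 at rank 1083 of 4034, and had its centre at -52 bp. Heart had no peak there. Its peak (chr12:108363907-108364104, score 28, rank 1076 of 2519) lay 29.7 kb from the start and 1.77 kb beyond the other end of the gene, so heart and the other tissues had their peaks at opposite ends of the gene. Cyp8b1, the sterol hydroxylase that sets the proportion of cholic acid in bile, had 1 liver peak (chr9:121905508-121905749, score 39, rank 2408), 8.73 kb downstream of the gene and inside Ackr2, a chemokine scavenger receptor gene. No peak within 10 kb was listed for Cyp7a1, the rate-limiting enzyme of bile acid synthesis, nor for Cyp7b1, Cyp27a1, Cyp39a1 or Cyp51. The nearest liver peaks were 649 kb from Cyp7a1, 926 kb from Cyp7b1, 69.9 kb from Cyp27a1 and 152 kb from Cyp51, which makes a cholesterol precursor. The nearest kidney peak to Cyp7a1 was 44.9 kb away.

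Peaks were at 2 of 3 vitamin D genes (66.7%, against 30.7% of all protein-coding genes), both in kidney and 1 also in liver. Cyp27b1, the kidney enzyme that makes active vitamin D, had a region with a liver peak (chr10:127063323-127063564, score 108, rank 381) and a kidney peak (chr10:127063404-127063591, score 85, rank 298). The kidney peak was the highest-scoring kidney peak at any Cyp gene. Both lay over 8 kb downstream of Cyp27b1 (8.56 and 8.61 kb) but within 92 and 38 bp of Cdk4, a cyclin-dependent kinase gene whose promoter carries the 4 E-boxes shown above. A second kidney peak (chr10:127041953-127042140, score 24, rank 2344), 6.20 kb upstream of Cyp27b1, lay inside Mettl1, which encodes a tRNA methyltransferase. Cyp24a1, which inactivates vitamin D, had 1 kidney peak (chr2:170497226-170497413, score 22, rank 2591), 174 bp outside the end of the gene at the higher coordinate and inside Pfdn4, a prefoldin subunit gene. The strand of Cyp24a1 is not in the promoter table, so this end is not named as its start. Liver and heart had no peak at Cyp24a1, with the nearest liver peak 22.9 kb away. Cyp2r1, which performs the first hydroxylation of vitamin D, had no peak, and the nearest of any list was a liver peak at 227 kb.

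All 3 genes of retinoic acid breakdown had a peak, against 30.7% of all protein-coding genes. They form 2 loci, since Cyp26a1 and Cyp26c1 share their peaks. Cyp26b1 had a region inside the gene shared by kidney (chr6:84583452-84583639, score 72, rank 426) and heart (chr6:84583430-84583627, score 74, rank 259), 10.3 kb downstream of its start. The nearest liver peak was 710 kb from the region. Cyp26a1 and Cyp26c1 are neighbours on chromosome 19, and their 3 shared peaks were in liver only. These (chr19:37695764-37696005, chr19:37697782-37698023 and chr19:37702490-37702731) scored 24, 27 and 31, at ranks 3823, 3458 and 3066, all in the lower 50% of the list. Relative to the start of Cyp26a1 their centres lay at -1.92 kb, 94 bp and 4.80 kb. All 3 were nearest to Cyp26a1, and Cyp26c1 was counted only because they lay 2.56, 4.58 and 9.29 kb downstream of it. The nearest kidney and heart peaks were at least 115 kb away. The tissues with a peak at Cyp26b1 and those with a peak at Cyp26a1 and Cyp26c1 did not overlap. These are only 2 loci, and 77.9% of all regions near a protein-coding gene were not shared between tissues. Whether the loci differ between tissues more than other genes do was not tested.

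Of 6 steroid hormone genes 1 had a peak, or 16.7%, against 30.7% of all protein-coding genes. It was Cyp17a1, which opens the route to androgens and to cortisol-type steroids. A liver peak inside the gene (chr19:46668186-46668427) scored 114, at rank 327 of 4813, the highest rank among liver-only peaks at Cyp genes. A second liver peak (chr19:46660272-46660513, score 38, rank 2481) lay 6.77 kb outside Cyp17a1 and nearer to Wbp1l. The nearest kidney and heart peaks were 93.1 kb from the peak inside the gene. Cyp11a1, Cyp11b1, Cyp11b2, Cyp19a1 and Cyp21a1, which act mainly in adrenal and gonad, had none.

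Of 29 genes for fatty acid and eicosanoid enzymes, Cyp4v3 and Cyp2u1 had a peak, each in liver only (6.90%, against 18.1% of all protein-coding genes with a liver peak). Cyp4v3, a fatty acid hydroxylase, had a peak (chr8:45333168-45333409, score 60, rank 1325) centred 125 bp upstream of its start, the peak whose sequence is shown above with its E-box. The nearest kidney and heart peaks were 667 and 395 kb from it. Cyp2u1, another fatty acid hydroxylase, had a peak 8.49 kb outside the gene (chr3:131312527-131312768, score 80, rank 746), nearer to Sgms2, a sphingomyelin synthase gene, at 6.34 kb. The clusters of Cyp4a, Cyp4f and Cyp2j genes had no peak of any list within 10 kb. Cyp4a10 and Cyp4a14, known as PPAR-alpha targets in liver, were 294 and 332 kb from the nearest liver peak.

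Of 46 xenobiotic-type genes, 6 had a liver peak (13.0%), 2 a kidney peak (4.35%) and 0 a heart peak, against 18.1, 18.0 and 11.5% of all protein-coding genes. Cyp1a1 and Cyp1a2, induced through the dioxin receptor, shared 1 liver peak between them (chr9:57686120-57686361, score 59, rank 1362), 2.59 kb before the start of Cyp1a2 and 1.69 kb from the near end of Cyp1a1. Cyp2c23, an arachidonic acid epoxygenase grouped here by its subfamily, had a liver peak inside the gene (chr19:44024992-44025233, score 74, rank 888). Cyp2d22 had a liver peak 8.95 kb outside it (chr15:82361455-82361696, score 70, rank 1008), nearer to Ndufa6, a gene of respiratory complex I. Cyp2f2, known for naphthalene activation in lung, had a region inside the gene with a liver peak (chr7:27128951-27129192, score 41, rank 2268) and a kidney peak (chr7:27128979-27129166, score 20, rank 2878). Cyp3a13 also had a shared region inside it, with a liver peak (chr5:137915642-137915883, score 27, rank 3458) and a kidney peak (chr5:137915674-137915861, score 18, rank 3164), the kidney one being the lowest-scoring kidney peak at a Cyp gene. Cyp2e1, Cyp3a11, Cyp2b10 and Cyp2a5, 4 widely studied drug-metabolising genes of liver, had no peak within 10 kb. Their nearest liver peaks were at 46.1, 38.8, 239 and 52.0 kb.

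**Figure D3:**
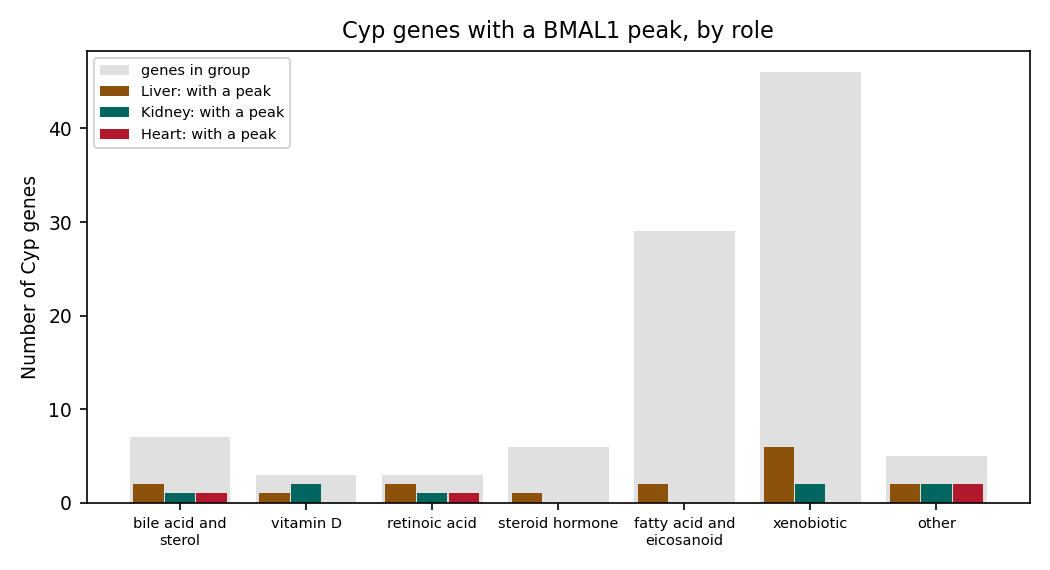
Number of Cyp genes in each role group (grey) and number with a BMAL1 peak inside or within 10 kb in liver, kidney and heart (coloured bars). The 2 largest groups, 46 xenobiotic and 29 fatty acid genes, hold 6 and 2 genes with a liver peak.

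The remaining 5 genes belonged to no group, and 4 of them had a peak (80%, against 30.7% of all protein-coding genes). The region near Cyp2t4 was the one found in all 3 tissues, with a liver peak (chr7:27166694-27166935, score 135, rank 213), a kidney peak (chr7:27166711-27166898, score 76, rank 373) and a heart peak (chr7:27166720-27166917, score 80, rank 222). It was the highest-scoring peak at a Cyp gene in liver and in heart. It lay 8.25, 8.24 and 8.25 kb downstream of Cyp2t4 but only 12, 2 and 16 bp from Egln2, a prolyl hydroxylase of the hypoxia pathway, over whose start the E-box shown above lies. Cyp2w1 had 3 liver peaks. The peak inside the gene (chr5:139359254-139359495) scored 68 at rank 1060, and the others (chr5:139365860-139366101 and chr5:139366525-139366766) scored 30 and 39, at ranks 3176 and 2408, inside the neighbouring 3110082I17Rik. Cyp20a1, a P450 of unsettled function, had 1 kidney peak 244 bp after its start (chr1:60343451-60343638, score 30, rank 1797). Cyp2ab1 had 1 heart peak (chr16:20331467-20331664, score 16, rank 2215), the lowest-ranking heart peak here, inside Abcc5 and 6.16 kb before Cyp2ab1. Cyp2g1 had none.

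Whether a peak belongs to the Cyp gene it was counted at was described by its nearest protein-coding gene. That gene was a Cyp gene for 14 of the 25 regions and another gene for 11. Assigning peaks only to the nearest gene left 9 Cyp genes in liver, 5 in kidney and 2 in heart, and no region common to the 3 tissues. This assignment can lower the count for any gene, and the share of all protein-coding genes under it was not computed. The drop is therefore not a result about Cyp genes. Of the 6 peaks in the top 10% of their lists, 5 lay at Egln2 or Cdk4 and 1, in Cyp17a1, inside a Cyp gene. At the edge of the window, the farthest peak counted was 9.29 kb from Cyp26c1, and the closest gene left out was Cyp2b19, with a liver and a kidney peak at 10.7 kb.

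Starts were listed for 77 of the 99 Cyp genes. Within 1 kb of a listed Cyp start were 3 of 19 liver peaks, at Cyp46a1, Cyp4v3 and Cyp26a1, 2 of 9 kidney peaks, at Cyp46a1 and Cyp20a1, and 0 of 4 heart peaks. Counting the starts of any protein-coding gene, 5 of 19 liver peaks (26.3%) and 6 of 9 kidney peaks (66.7%) were within 1 kb, and in heart the 1 peak at Egln2 (25%). Among all peaks near a protein-coding gene these shares were 29.5, 40.2 and 37.2% for liver, kidney and heart. Starts were listed for 17492 of the 21887 protein-coding genes, so all these shares can be too low. Among Cyp genes with a peak, Cyp17a1, Cyp2c23, Cyp2d22, Cyp2u1 and Cyp24a1 had no listed start. By the listed starts, the liver peaks at Cyp genes lay mostly away from starts, as did liver peaks near other genes.

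**Figure D4:**
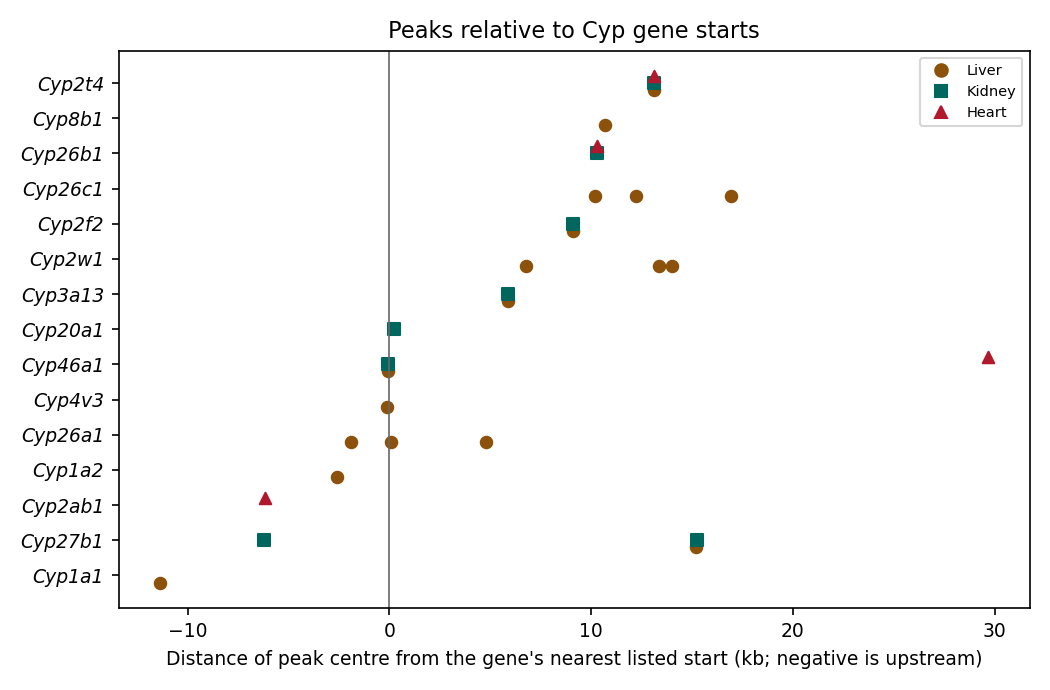
Distance of each peak centre from the nearest listed start of the Cyp gene (kb, negative is upstream), for the 15 Cyp genes with a peak and a listed start; symbols give the tissue. Cyp46a1, Cyp4v3, Cyp20a1 and Cyp26a1 have a peak within 244 bp of the start, and the heart peak at Cyp46a1 lies at 29.7 kb.

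The genes in tandem clusters and those outside them were then set apart, by a rule chosen after the peaks had been seen. A cluster was a run of at least 3 Cyp genes with at most 200 kb between neighbours. There were 8 clusters with 66 genes, and 3 of these genes had a peak (4.55%, 0.947 to 12.7%). Outside the clusters 17 of 33 genes had a peak (51.5%, 33.5 to 69.2%), against 30.7% of all protein-coding genes. With a gap of 50 kb, fewer genes counted as clustered, and the shares were 2.63% of 38 genes in clusters and 31.1% of 61 outside, so the excess outside clusters depends on this gap. In 6 clusters, none of the 50 genes had a peak inside it or within 10 kb. These include 14 Cyp2c genes across 1180 kb of chromosome 19, 10 Cyp4 genes across 541 kb of chromosome 4 and 8 Cyp3a genes across 770 kb of chromosome 5. The 3 clustered genes with a peak were Cyp2d22, Cyp2f2 and Cyp2t4, and only at Cyp2f2 was the Cyp gene the nearest. Clustered genes have near-identical copies in which short reads can map to several places. How reads with several matches were treated is not stated in the sources used here, and their part in the absence of peaks was not tested.

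Of the Cyp promoter windows (87 windows of 77 genes), 2 held CACGTG on either strand (2.30%), at Cyp4v3 and Cyp2j6, against 7.84% of the 21263 windows of protein-coding genes. Among windows overlapped by a peak over at least 100 bases the share was 43.8% of 742 windows in liver, 41.9% of 934 in kidney and 41.3% of 446 in heart. CACGTT, at Cyp26a1 and Cyp2e1, was in 2.30% of Cyp windows and 4.68% of coding windows. Cyp4v3 was the 1 Cyp gene with both a CACGTG in its window and a peak there. The letters CAAAGTCCA, a form of the HNF4 motif, were in 11 Cyp windows (12.6%) against 0.451% of coding windows, at Cyp2c and Cyp3a genes and at Cyp8b1. The forkhead letters TGTTTAC were in 10 (11.5%) against 3.01%. TTACGTAA, bound by Dbp, Tef and Hlf, and TTGCGCAA, bound by C/EBP factors, were in 0 Cyp windows, against 0.136 and 0.221% of coding windows. Both are so rare that 87 windows are too few to tell 0 from these shares. Tandem copies share promoter sequence, so these windows are not independent, and a match of letters is not a binding site.

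Genes that act with or on P450 enzymes were described from a list of 20. It was chosen with earlier results of these data known, so the shares below are descriptive and not independent support. Peaks were at 11 of them in liver (55.0%), 9 in kidney (45.0%) and 6 in heart (30.0%), against 18.1, 18.0 and 11.5% of all protein-coding genes. The 3 genes Dbp, Tef and Hlf had peaks in all 3 tissues, with best liver ranks of 3, 8 and 106, and were chosen as known BMAL1 targets. Without them, an alternative added after seeing the data, the shares of the other 17 genes were 47.1% in liver (8 genes), 35.3% in kidney (6) and 17.6% in heart (3), so 3 of the 6 genes with a heart peak were chosen as targets. Por, the reductase that passes electrons to microsomal P450 enzymes, had 4 liver peaks (best rank 371) and 2 kidney peaks (best rank 95) and no heart peak. Alas1, which starts heme synthesis, had 1 liver peak (rank 1008) and 2 kidney peaks (best rank 1408). Among regulators of Cyp genes, Ppara had 5 liver peaks (best rank 138) and 1 kidney peak (rank 286), and Hnf4a had 3 liver peaks (best rank 189) and 1 kidney peak (rank 219). Nr0b2, which represses bile acid synthesis genes, had 3 liver peaks (best rank 941), and the xenobiotic receptor gene Nr1i2 had 1 (rank 1606). Ahr had 1 heart peak (rank 1975), and Arnt 1 heart peak (rank 970). Lower in their lists were the liver peaks at Cyb5r3 (rank 3282) and Nr5a2 (rank 4212). So were the kidney peak at Rxra (rank 2591) and the kidney and heart peaks at Cyb5b (ranks 3031 and 1975). No peak was found at Nr1i3, Nr1h4, Fdx1, Fdxr or Cyb5a.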

How the data were processed

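Peak lists from liver, kidney and heart were analysed, 1 per tissue, for which the authors pooled the ChIP libraries and the inputs, per the labels. The submitters' processing notes name Bowtie2, SAMtools, HOMER and the build mm10, with no versions, thresholds or treatment of reads with several matches. The deposited lists give a position and a whole-number score per peak, and since the authors' scale of this score is unknown here, only ranks within a list were read from it. No table gave counts, so depth is unknown.

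Genes came from a RefSeq table of GRCm38.p6, the assembly that mm10 denotes, on chromosomes 1 to 19, X and Y. Starts, strands and promoter sequences came from a RefSeq promoter table. Coordinates count from 1. An overlap of 1 bp made peaks shared. Shares have exact Clopper-Pearson 95% intervals (scipy 1.17.1, Python 3.11.15). Counting was tested on simulated peaks. No test was made, since each tissue has 1 list.

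Motifs were searched in promoter windows, the fallback planned for the case of no genome sequence. Every Cyp gene with a peak was named, with positions for shared regions and the 5 highest peaks per list, and here for all. The members, role groups and lists were chosen with earlier results of these data known, and the cluster rule after the peaks had been seen. The windows of 5 and 50 kb, stricter lists, other overlap rules and nearest-gene assignment were tried.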

Additional observations from a re-analysis of the deposited data

How the results depend on the processing

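No paired analysis was possible because libraries were pooled by the authors before peaks were called, so no replicate could be left out or matched by number; the alternative window for motifs around peak centres was not run, since no genome sequence was used. The share of peaks in 1 tissue only was within its main interval in liver under every alternative, from 60.0 to 78.6%. Counts of genes and peaks moved mainly because each alternative changes which peaks can enter. Peaks inside genes alone gave 6 genes and 6 peaks in liver, 4 and 4 in kidney and 1 and 1 in heart, with 0% of the heart peak in heart only, and 5, 3 and 0 regions in 1, 2 and 3 tissues. Within 5 kb there were 11 liver peaks, 2 genes and 2 peaks in heart, 11 regions in 1 tissue and 0 in 3. At 5 kb the share of Cyp genes was 11.1, 6.06 and 2.02% in liver, kidney and heart, against 15.5, 15.5 and 9.99% of all protein-coding genes. Within 50 kb there were 27 genes and 47 peaks in liver, 20 and 23 in kidney and 12 and 9 in heart, and 50, 10 and 3 regions in 1, 2 and 3 tissues. At 50 kb the share of Cyp genes was 27.3, 20.2 and 12.1% in liver, kidney and heart, against 34, 33.1 and 22.7% of all protein-coding genes. The Cyp share was thus lower in each list, while at 10 kb the liver share was near that of all genes. The upper 50% of each list by score gave 11 liver peaks, 5 genes and 5 peaks in kidney, and 10 and 3 regions in 1 and 2 tissues. As many top peaks per list as the heart list holds gave 5 kidney genes and 3 regions in 2 tissues. The top 1000 peaks gave 5 genes and 5 peaks in liver, 3 and 3 in kidney and 2 and 2 in heart, 0% of kidney and heart peaks in 1 tissue only, and 3 and 2 regions in 1 and 2 tissues. Nearest-gene assignment gave 9 genes and 11 peaks in liver, 5 and 5 in kidney and 2 and 2 in heart, and 10 and 0 regions in 1 and 3 tissues. For the stricter lists and for nearest-gene assignment the share of all protein-coding genes was not computed, so these gene counts have no background beside them. Leaving Dbp, Tef and Hlf out of the list of partner genes kept each tissue's share within its interval. The 2 other overlap rules left each share and region count within its limit. Cluster gaps of 50 and 500 kb were added after seeing the data, and the 500 kb gap gave 7.04% of clustered and 53.6% of other genes with a peak.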

Other observations

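Between 10 and 50 kb from Cyp genes, the lists held further peaks that the 10 kb window leaves out. Cyp2e1, a hepatocyte enzyme that oxidises ethanol, had a liver peak at 46.1 kb and a heart peak at 40.1 kb. Cyp3a11, the main drug-metabolising Cyp3a gene of mouse liver, had 1 liver peak at 38.8 kb, and no kidney or heart peak within 410 kb. In the Cyp2d cluster, the nearest liver peaks were 16.4 kb from Cyp2d10 and 13.8 kb from Cyp2d34. Cyp11b2, the adrenal aldosterone synthase gene, had a liver peak at 35.9 kb, and Cyp11a1, which starts steroid synthesis, a heart peak at 32.5 kb. Cyp4f18 and Cyp2s1 had 1 kidney peak each, at 23.4 and 46.3 kb. Whether any of these peaks acts on the Cyp gene was not tested.

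The median distance to the nearest peak was larger for Cyp genes than for all genes in each list. The median Cyp gene lay 206 kb from a liver peak, 186 kb from a kidney peak and 357 kb from a heart peak, against 117, 127 and 217 kb for the 21631 protein-coding genes on chromosomes with a peak. At the upper quartile the distance was 459 kb for Cyp genes and 415 kb for all genes in liver, 472 and 484 kb in kidney and 673 and 681 kb in heart, so there Cyp genes were not farther away in kidney and heart. Neighbouring Cyp genes share these distances, so no test was made.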
